A study of Mus musculus with 16 samples.

Results

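Polycomb repressive complex 2 (PRC2) was followed through 10 of its subunit genes, Ezh2, Ezh1, Eed, Suz12, Rbbp4, Rbbp7, Jarid2, Mtf2, Phf1 and Phf19, out of 19938 genes with a measured level. All 10 were represented, by 12 probe sets. A probe set is a group of short DNA probes on the array that together report 1 transcript, and its value here is on a log2 scale, so a difference of 1 is a doubling. The 10 genes were listed by function. Ezh2 heads the list because its result was already known: it was 1 of 9 genes called lower in the knockout olfactory bulb. That contrast is therefore described without a test.

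PRC2 silences genes by methylating lysine residues on the tail of histone H3, leaving the mark H3K27me3. Ezh2 or its relative Ezh1 carries the methyltransferase activity, Eed and Suz12 are needed for that activity, and Rbbp4 and Rbbp7 are histone-binding chaperones that also serve other chromatin complexes. Jarid2, Mtf2, Phf1 and Phf19 are accessory subunits that bring the complex to its targets, the last 3 being Polycomb-like proteins. In the adult forebrain, Ezh2 is best known in dividing progenitors and their neuronal offspring, and Ezh1 in non-dividing cells. Polycomb complexes and the SWI/SNF chromatin remodeller, which contains Brg1, are classical antagonists.

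The study asked what follows in adult neurogenesis when Brg1 (gene Smarca4) is deleted. Total RNA came from the subependymal zone (SEZ), the niche of neural stem cells beside the lateral ventricle, and from the olfactory bulb (OB), its core region, to which the new neurons migrate. Mice were 2.5 months old, of mixed C57BL/6 and CD1 background, and not treated per the labels. All groups carried GlastCreERT2, a tamoxifen-dependent recombinase under the locus of an astroglial transporter, so recombination is limited to astroglia, stem cells among them, and their progeny. Knockout samples (cKO, Brg1fl/fl, n = 3 in each tissue) had 2 floxed copies. Controls (Brg1fl/+, n = 5 in each tissue) had 1 floxed copy, except SEZ control replicate 5, labelled Brg1+/+. Each array held RNA of a whole tissue piece, in which fewer cells of a type and less RNA per cell cannot be told apart.

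Array medians lay between 7.45 and 7.65 and lower quartiles between 5.89 and 6.13. The labelled tissues carried different markers in controls. Those of bulb interneurons (6 of 6) and of mitral or tufted cells (5 of 5) were called higher in OB, as were 12.6% of all genes. Those of striatal neurons (7 of 7) and ependyma (9 of 9) were called higher in SEZ, as were 14.9% of all genes. The mean of the 7 striatal genes was 12.65 to 12.87 in SEZ and 8.66 to 8.81 in OB controls. The SEZ pieces thus held RNA of striatal neurons, and its part in the tissue differences was not tested. Smarca4 itself did not differ beyond its error between genotypes: 10.71 ± 0.04 in SEZ controls, 10.70 ± 0.08 in SEZ cKO, 11.01 ± 0.04 in OB controls and 11.02 ± 0.06 in OB cKO samples. The positions of its probes relative to the floxed part are not used here, so it does not check the labels. Arrays stood apart within their groups. The strongest component left after subtraction of group means held 41.0% of the remaining variance, and its sign split the arrays into set A (OB cKO 1 and 3, OB control 1 and 3, SEZ cKO 3, SEZ control 1 and 3) and set B (the other 9). The labels name no batch that matches the sets. The sets were defined from all genes, members included, so differences between them are given as values only. The arrays of cKO number 1 differed in Xist, which is transcribed from the inactive X chromosome (12.40 in SEZ, 6.08 in OB), so the same number does not stand for 1 animal there. Slc1a3, the astroglial transporter whose locus drives the Cre, was at 8.16 and 8.85 in the SEZ and OB arrays of cKO number 3 and between 11.16 and 12.27 on the other 14.

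The sequences around the transcription starts of the 3 members that differed between the tissues of controls (Ezh2, Jarid2 and Phf1) are shown first, because their levels are the clearest tissue contrast within the complex. The windows are from RefSeq on GRCm38.p6, 300 bases long, from 250 bases before to 50 bases after the start. All 10 members had at least 1 window, and Jarid2 and Mtf2 had 2 each. Capitals mark a match to the core of the E2F motif, searched on both strands as TTCCCGC, as TTCGCGC, as TTGCCGC and as TTGGCGC. E2F factors drive genes of the S phase.
Ezh2, chr6:47594981-47595280, minus strand: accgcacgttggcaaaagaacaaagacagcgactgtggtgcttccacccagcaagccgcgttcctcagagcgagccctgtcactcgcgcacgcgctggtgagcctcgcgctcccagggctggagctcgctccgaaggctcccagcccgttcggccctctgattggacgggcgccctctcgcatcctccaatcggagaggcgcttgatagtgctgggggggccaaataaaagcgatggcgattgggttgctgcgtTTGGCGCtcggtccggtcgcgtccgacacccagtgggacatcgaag
Jarid2 upstream start, chr13:44730524-44730823, plus strand: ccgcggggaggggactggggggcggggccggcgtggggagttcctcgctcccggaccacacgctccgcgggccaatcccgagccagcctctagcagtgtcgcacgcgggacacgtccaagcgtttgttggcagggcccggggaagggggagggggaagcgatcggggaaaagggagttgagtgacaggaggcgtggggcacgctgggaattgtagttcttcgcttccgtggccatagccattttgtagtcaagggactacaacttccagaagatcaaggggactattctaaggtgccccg
Phf1, chr17:26932877-26933176, plus strand: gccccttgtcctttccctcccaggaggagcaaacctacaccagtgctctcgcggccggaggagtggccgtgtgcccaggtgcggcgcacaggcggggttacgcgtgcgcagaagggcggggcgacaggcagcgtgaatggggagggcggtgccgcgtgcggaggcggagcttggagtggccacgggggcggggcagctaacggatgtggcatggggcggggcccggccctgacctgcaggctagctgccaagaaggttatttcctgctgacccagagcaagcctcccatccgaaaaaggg

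Ezh2 had 1 match, TTGGCGC, 5 bases into the transcript on the coding strand. Jarid2 and Phf1 had none in these windows. Of the 12 member windows, 4 held a match (1 each of Ezh2, Suz12, Rbbp4 and Phf19), against 9.57% of all 32851 windows of this length. In Rbbp4, 2 matches on opposite strands overlapped each other. The cell cycle homology element, searched on both strands as TTTGAA and as TTCGAA, was found in 3 of the 12 member windows (Eed, Suz12 and Mtf2) and in 19.2% of all windows. A match describes letters in a window, not a bound site.

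**Figure D1:**
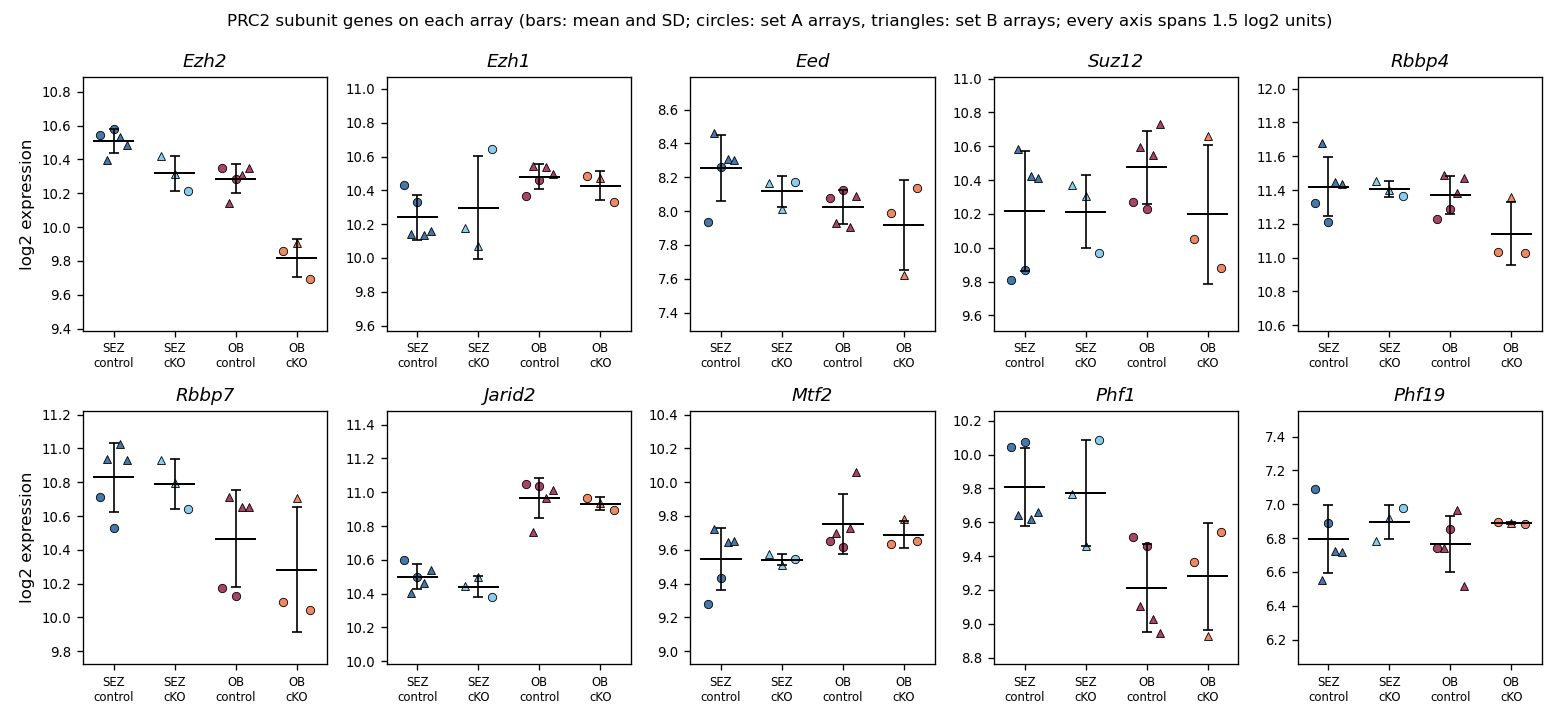
Log2 expression of the 10 PRC2 genes on each of 16 arrays in the 4 groups of tissue and genotype, with mean and SD as black bars; circles are set A arrays and triangles set B arrays. Ezh2 lies lowest in the 3 OB cKO samples (9.69 to 9.91), Jarid2 is higher in OB than in SEZ whatever the genotype, and Suz12, Rbbp7 and Phf1 split by set within OB.

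Ezh2, the main methyltransferase subunit of dividing cells, was highest in SEZ controls and lowest in OB cKO samples. The 5 SEZ controls had levels of 10.55, 10.40, 10.58, 10.53 and 10.49. The 3 SEZ cKO samples were at 10.42, 10.32 and 10.22, and the 5 OB controls at 10.35, 10.14, 10.28, 10.31 and 10.35. The 3 OB cKO samples were at 9.86, 9.91 and 9.69, below every other array of the series. The neighbouring groups in this order, SEZ cKO and OB control, overlapped.

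In OB, Ezh2 fell from 10.29 ± 0.09 (SD, n = 5) to 9.82 ± 0.11 (n = 3), a log2 difference of -0.47 (95% interval -0.62 to -0.31) or -27.7%. This is the value that chose it, and it is a description. Among all genes 0.0451% were called in this contrast. The difference was -0.54 in set A (2 cKO, 2 control) and -0.36 in set B (1 cKO, 3 control). Numbers 1 to 3 deviated together across the genotypes in OB, and with the replicate number as a block Ezh2 was not called, where 0.0251% of all genes were. Leaving out single arrays ended the call for OB cKO replicate 1 or 3 and for OB control replicate 1, 3, 4 or 5, while its difference over these 8 omissions stayed between -0.51 and -0.40. Without both arrays of cKO number 1 it was -0.49, and without both of number 3 it was -0.40.

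Markers of neuroblasts, the migrating young neurons, moved in the same samples. Of 19 neuroblast genes 4 were called lower in OB cKO samples (Cd24a, St8sia2, Tubb2b and Nrep), where 0.0451% of all genes were. These 4 are among the 9 genes called there, as is Ezh2, and the list was chosen with earlier results of these data known. Of the 19, 17 had estimates below 0, as did 52.1% of all genes. The mean level of this list was 10.13 to 10.36 in OB cKO samples and 10.57 to 10.80 in OB controls, and none of its genes was below the lower quartile of the arrays in either group. Of 10 microglial genes, 9 had estimates below 0. In limma 0 passed and 4 had an unadjusted p under 0.05, where 3.51% of all genes did. The list means were 8.52 to 8.92 in cKO and 8.69 to 8.998 in control samples. The list of dividing cells, 21 genes, had means of 6.91 to 6.94 against 6.88 to 6.98, with 4 genes below the lower quartile. Its members went both ways, from -0.44 (Pcna, a replication clamp) to 0.22, with 13 estimates below 0, 0 passed in limma and 2 (Mcm5 and Pcna) with an unadjusted p under 0.05. The part of these cell types in the Ezh2 result was not tested.

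In SEZ, Ezh2 was 10.51 ± 0.07 (n = 5) in controls and 10.32 ± 0.10 (n = 3) in cKO samples. The OB contrast chose Ezh2, but 1 fit of all 16 arrays gave both contrasts the same estimate of spread. The SEZ interval and p-value are therefore not fully independent of the choice. The difference of -0.19 (SE 0.07, 95% interval -0.35 to -0.03, -12.3%) did not pass over all genes in limma (adjusted p = 1.00, unadjusted p = 0.021). The groups overlapped, since SEZ cKO replicate 1 lay above SEZ control replicate 2. No gene at all was called in this contrast (0.00%), and 2.47% had an unadjusted p under 0.05. Within sets the difference was -0.35 (1 cKO, 2 control) and -0.10 (2 cKO, 3 control).

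The markers of dividing cells were lower on the same SEZ arrays. All 21 had estimates below 0, as did 48.0% of all genes, with a median of -0.25 against 0.004 over all genes. In limma 0 passed and 13 had an unadjusted p under 0.05, where 2.47% of all genes did in this contrast. Their mean level was 7.32 to 7.40 in SEZ cKO samples and 7.57 to 7.72 in SEZ controls, without overlap, with 1 gene below the lower quartile. The neuroblast list was at 9.59 to 9.61 in cKO and 9.70 to 9.89 in control samples, with 16 of 19 estimates below 0, 0 passed in limma and 3 with an unadjusted p under 0.05. The 4 cortical neuron markers also had estimates below 0 (median -0.59, 0 passed in limma, 2 with an unadjusted p under 0.05), with list means of 6.86 to 7.13 in cKO samples, 8.26 and 8.62 in SEZ controls 2 and 4, and 6.98 to 7.17 in the other 3 controls. Without SEZ controls 2 and 4 the Ezh2 difference was -0.22. Whether the other cells carry the SEZ difference in Ezh2 was not tested.

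**Figure D2:**
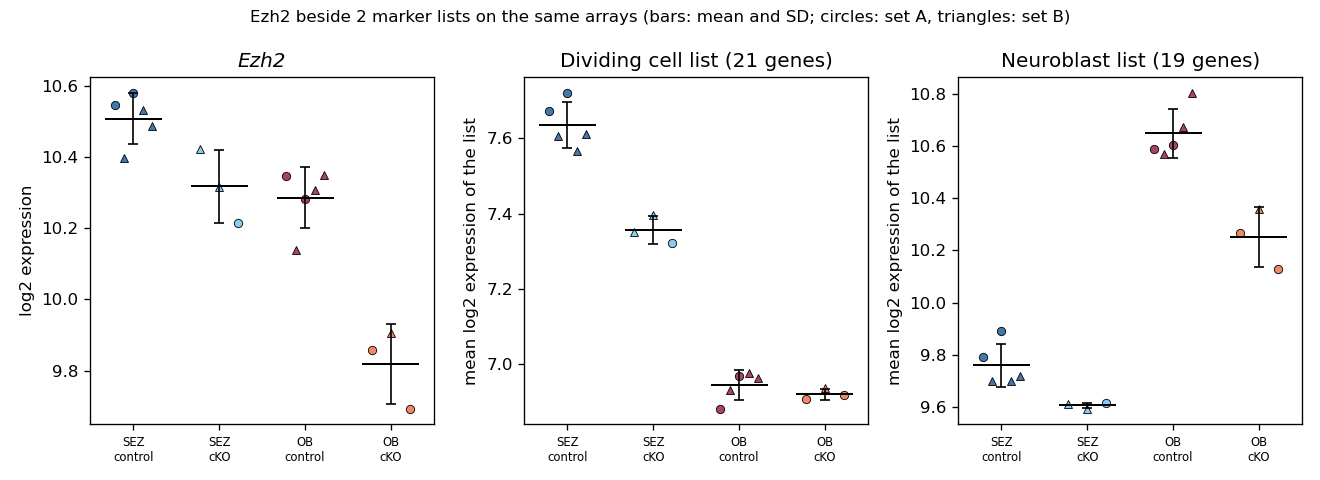
Log2 expression of Ezh2 (left) and the mean log2 expression of 21 dividing cell genes (middle) and 19 neuroblast genes (right) on each array, by group, with mean and SD as bars, circles for set A and triangles for set B. In OB cKO samples Ezh2 and the neuroblast list are low while the dividing cell list means overlap between genotypes; between the tissues of controls Ezh2 and the dividing cell list are higher in SEZ and the neuroblast list in OB.

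Between the tissues of controls, Ezh2 was 1.17-fold lower in OB than in SEZ (difference -0.22, SE 0.06, adjusted p = 0.015), and no OB control reached the lowest SEZ control. The 5 OB controls also stood in the contrast that chose Ezh2, and the fit shares its spread with it. This adjusted p is therefore not independent of the choice. The difference kept its size in both sets, at -0.25 (2 against 2) and -0.21 (3 against 3). Of the dividing cell genes 19 of 21 were lower in OB, and of the neuroblast genes 15 of 19 were higher and 2 lower, where 14.9% of all genes were called lower and 12.6% higher. Also lower in OB were genes of myelin (9 of 9), ependyma (9 of 9) and striatal neurons (7 of 7). So were 5 of 10 microglial, 4 of 7 endothelial and 3 of 6 oligodendrocyte progenitor genes. Of choroid plexus genes 4 of 6 were lower and 1 higher, of astroglial genes 1 of 10 lower and 3 higher. Genes of bulb interneurons (6 of 6), mitral or tufted cells (5 of 5) and cortical neurons (1 of 4) were higher. The part of these cells in the Ezh2 difference was not tested. In cKO samples Ezh2 differed by -0.50 between the tissues (95% interval -0.68 to -0.32), a description only, since its OB samples are those that chose the gene.

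Ezh1, the alternative methyltransferase, had no difference between genotypes beyond its error. It was 10.24 ± 0.13 in SEZ control, 10.30 ± 0.30 in SEZ cKO, 10.48 ± 0.07 in OB control and 10.43 ± 0.09 in OB cKO samples. Its difference was 0.06 in SEZ (95% interval -0.17 to 0.29) and -0.05 in OB (-0.29 to 0.18). The wide spread of the SEZ cKO group came from replicate 3, at 10.65 against 10.18 and 10.07. Between the tissues of controls it was 0.24 higher in OB, which missed the threshold (SE 0.09, adjusted p = 0.0725). It passed without SEZ control replicate 1, an array of set A (adjusted p = 0.0353). Within sets the difference in controls was 0.03 in set A (2 against 2) and 0.38 in set B (3 against 3). In cKO samples the sets went opposite ways, at -0.24 in set A (2 OB, 1 SEZ) and 0.35 in set B (1 OB, 2 SEZ).

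Eed, which reads the H3K27me3 mark, was measured by 2 probe sets. The brighter lay between 7.62 and 8.46 over all arrays. The other, annotated to a single cDNA clone, lay between 5.22 and 5.84, below the lower quartile on every array, and was not used. Eed differed by -0.13 in SEZ (95% interval -0.38 to 0.11) and by -0.11 in OB (-0.36 to 0.14). In controls it was at -0.23 in OB against SEZ (SE 0.10, adjusted p = 0.115). It passed without SEZ control replicate 1, its lowest SEZ control at 7.93 (difference -0.31, adjusted p = 0.0197). Within sets the difference was 0.003 in set A (2 against 2), which holds that array, and -0.38 in set B (3 against 3).

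Suz12, the core scaffold subunit, varied among arrays of 1 group more than between the groups. SEZ controls 1 and 3, both of set A, were at 9.81 and 9.87, and SEZ controls 2, 4 and 5 at 10.58, 10.43 and 10.41. OB controls 1 and 3 were at 10.27 and 10.23, and OB controls 2, 4 and 5 at 10.59, 10.55 and 10.73. Set A lay below set B in both tissues, by -0.64 in SEZ and -0.37 in OB controls. The OB cKO samples followed the same split, with 10.05 and 9.88 in set A and 10.66 in set B. The OB difference of -0.28 (95% interval -0.70 to 0.14) was -0.29 within set A and 0.04 within set B. In SEZ the difference was -0.01 (-0.42 to 0.41).

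Rbbp4 and Rbbp7 are near-identical histone chaperones encoded by separate genes, Rbbp7 on the X chromosome. Rbbp4 was 11.42 ± 0.18 in SEZ control, 11.41 ± 0.05 in SEZ cKO, 11.37 ± 0.11 in OB control and 11.14 ± 0.19 in OB cKO samples. In OB cKO samples the set A arrays were at 11.04 and 11.03, below all 5 controls (11.23 to 11.49), and the set B array at 11.36 lay among them. Its OB difference was -0.23 (95% interval -0.45 to -0.01), of the 10 members the largest after Ezh2 relative to its error. Rbbp7 was 10.83 ± 0.20, 10.79 ± 0.15, 10.47 ± 0.29 and 10.28 ± 0.37 in the same order. OB controls 1 and 3 were at 10.18 and 10.13, and OB controls 2, 4 and 5 between 10.66 and 10.71. That split did not follow Xist, which was 12.33 and 12.44 in OB controls 1 and 4. Between tissues Rbbp7 was at -0.36 in controls (SE 0.15, adjusted p = 0.0815) and -0.51 in cKO samples (SE 0.19, adjusted p = 0.0666). Rbbp4 was at -0.05 and -0.26 (adjusted p = 0.777 and 0.116). In cKO samples Rbbp7 passed in limma with the replicate number as a block (adjusted p = 0.00382) and with genotype and number as the block (adjusted p = 0.0297). Rbbp4 passed there with the number block only (adjusted p = 0.0378). However, the 2 arrays of cKO number 1 are not of 1 animal, so these blocks do not pair the tissues there. The second probe set of Rbbp7 was also higher in SEZ than in OB controls, at 10.40 ± 0.24 against 10.19 ± 0.28.

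**Figure D3:**
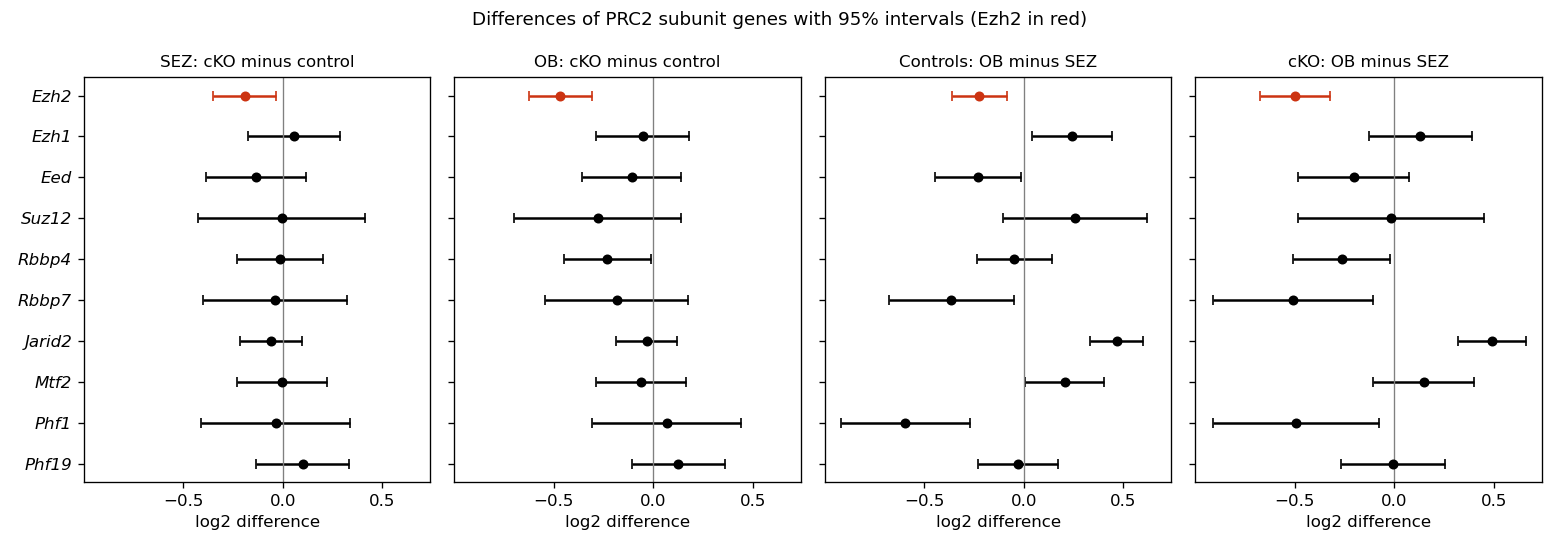
Log2 differences of the 10 PRC2 genes with 95% intervals from the fit of all 16 arrays, 1 panel per contrast, Ezh2 in red. In the 2 panels of cKO minus control most intervals cross 0, while in the tissue panels Jarid2 lies to the right and Ezh2, Phf1 and Rbbp7 to the left.

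Jarid2, the accessory subunit that recruits PRC2 in stem cells, was higher in OB than in SEZ in both genotypes. SEZ controls were at 10.60, 10.40, 10.50, 10.46 and 10.54, and SEZ cKO samples at 10.44, 10.50 and 10.38. OB controls were at 11.05, 10.77, 11.04, 10.96 and 11.01, and OB cKO samples at 10.97, 10.93 and 10.89. No OB array of either genotype came down to a SEZ array. In controls it was 1.38-fold higher in OB (difference 0.47, SE 0.06, adjusted p = 1.72e-05), and in cKO samples 1.40-fold higher (0.49, SE 0.08, adjusted p = 0.000204). Between genotypes it differed by -0.06 in SEZ (95% interval -0.21 to 0.09) and -0.03 in OB (-0.19 to 0.12).

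Of the Polycomb-like subunits, Phf1 was lower in OB. SEZ controls were at 10.04, 9.64, 10.08, 9.62 and 9.66, and OB controls at 9.52, 9.11, 9.46, 9.03 and 8.95, without overlap. The difference of -0.60 (SE 0.15, adjusted p = 0.0068, 1.51-fold lower in OB) was -0.57 within set A and -0.61 within set B, although set A stood above set B by 0.42 and 0.46 in SEZ and OB controls. In cKO samples the groups overlapped, with 9.77, 9.46 and 10.09 in SEZ and 9.36, 8.93 and 9.54 in OB. That difference of -0.49 (SE 0.20, adjusted p = 0.0872) did not pass. It passed without SEZ cKO replicate 2 (-0.65, adjusted p = 0.0411) and with arrays centred on their medians (-0.57, adjusted p = 0.0209). It also passed in limma with the replicate number as a block (adjusted p = 0.000375) and with genotype and number as the block (adjusted p = 0.0342). However, the 2 arrays of cKO number 1 are not of 1 animal. Phf1 differed between genotypes by -0.03 in SEZ (95% interval -0.41 to 0.34) and 0.07 in OB (-0.31 to 0.44).

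Mtf2 and Phf19 were not called in any of these contrasts. Mtf2 was at 9.55 ± 0.18 in SEZ and 9.75 ± 0.18 in OB controls (difference 0.20, SE 0.09, adjusted p = 0.122), with OB control replicate 5 at 10.06 above the other 4 (9.62 to 9.73). In cKO samples it was at 9.63, 9.78 and 9.65 in OB and at 9.57, 9.51 and 9.54 in SEZ, without overlap (difference 0.15, adjusted p = 0.447), where 14.3% of all genes lay higher in OB without overlap. Its genotype differences were -0.005 in SEZ (95% interval -0.23 to 0.22) and -0.06 in OB (-0.29 to 0.16). Phf19 lay between 6.52 and 7.09 on all arrays, below every array median. Its genotype differences were 0.10 in SEZ (-0.13 to 0.33) and 0.12 in OB (-0.11 to 0.36).

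As a set, 0 of 10 members passed between genotypes in SEZ, 1 (Ezh2) had an unadjusted p under 0.05 in limma, and 0 had groups without overlap (of all genes 0.943% lay higher and 1.05% lower without overlap). Their median difference was -0.02 in SEZ, against 0.004 over all genes, and -0.09 in OB, against -0.005. In OB 1 of 10 was called, which is Ezh2 by choice. By the same choice Ezh2 was the 1 member without overlap there, where 1.57% of all genes lay lower and 0.958% higher without overlap. Of the 9 members other than Ezh2, 1 (Rbbp4) had an unadjusted p under 0.05 in limma, as did 3.51% of all genes. For the difference between the SEZ and OB effects 0 of 10 passed, and 0.00502% of all genes were called. No member other than Ezh2 had an unadjusted p under 0.05 there, where 1.48% of all genes did. Ezh2 is set aside, since this last contrast contains the one that chose it. Between the tissues of controls 3 of 10 passed, 1 higher and 2 lower in OB, where 27.5% of all genes did. Ezh2 is 1 of these 3, and its OB controls also stood in the contrast that chose it. Those 3 were also the members without overlap, as were 9.93% (higher) and 11.9% (lower) of all genes, and 7 had an unadjusted p under 0.05, against 35.8%. In cKO samples, of the 9 members other than Ezh2, 1 passed (Jarid2, higher), where 23.1% of all genes did. An unadjusted p under 0.05 was found for 4 of these 9 and for 32.8% of all genes. Among these 9, groups did not overlap for Jarid2 and Mtf2 (higher) and for Rbbp4 (lower), as for 14.3% and 19.0% of all genes. Of all genes called in cKO samples 43.2% were higher in OB, and 32.6% with arrays centred on their medians.

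Same-numbered control arrays of the 2 tissues deviated together, so all arrays were also fitted with the replicate number as a block. That block gives same-numbered arrays of both tissues and both genotypes 1 shared effect, so it does not pair the controls alone. The SEZ cKO and SEZ control arrays of number 1 deviated in opposite ways (correlation -0.405). With that block 5 of 10 members passed between the tissues of controls: Ezh2, Jarid2 and Phf1 again, Rbbp7 lower in OB (-0.36) and Mtf2 higher (0.20). In that fit 32.7% of all genes were called. With genotype and number as the block, Ezh2, Jarid2, Phf1 and Rbbp7 (adjusted p = 0.0392 in limma) passed and Mtf2 did not. By label, the SEZ and OB controls of number 5 differ in genotype (Brg1+/+ and Brg1fl/+), so they are not the same animal. The set component was also used as a covariate, a choice made after seeing the data. It was computed from these same arrays after subtraction of the group means. It therefore left the differences unchanged and took up part of the spread they are tested against, so more calls were to be expected. With it 7 members passed, Ezh1 and Suz12 besides the 5 of the block by number, and 36.3% of all genes were called. That count is no separate support for these members.

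The other genes around PRC2 were taken from fixed lists. The 4 further accessory genes (Aebp2, Epop, Lcor and Lcorl) had no call in any contrast in limma. Between genotypes they lay within -0.10 and 0.11 in SEZ, and in OB within -0.46 and 0.06, where Lcorl, a relative of the PRC2-binding protein encoded by Lcor, was lowest at -0.46 (SE 0.19). Unadjusted, 0 of 4 were under 0.05 in SEZ and 1 (Lcorl) in OB, where 3.51% of all genes were.

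Polycomb repressive complex 1 (PRC1), which ubiquitinates histone H2A and binds the H3K27me3 mark, was covered by 18 measured genes. None passed between genotypes in limma, with unadjusted p under 0.05 for 1 in SEZ (Bmi1) and 2 in OB (Rnf2 and Pcgf3). Of all genes 2.47% in SEZ and 3.51% in OB had one. Bmi1, a stem cell maintenance factor of PRC1, was at -0.31 in SEZ (SE 0.12) and -0.23 in OB (SE 0.12), and Rnf2, a catalytic ubiquitin ligase, at -0.07 and -0.26. Ring1, the other ligase, was at -0.045 and 0.26, and Pcgf1 at -0.145 and 0.00. Between the tissues of controls 3 were higher in OB and 2 lower, 5 of 18, a share near the 27.5% of all genes. Bmi1 was higher (0.45, SE 0.11, adjusted p = 0.00358), with Pcgf6 (0.58) and Kdm2b (0.25). Pcgf5, a PRC1 subunit of the variant complexes, was lower (-0.75, SE 0.13, adjusted p = 0.000179), with Scmh1 (-0.28).

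The enzymes that oppose polycomb marks had no call between genotypes in limma and 3 calls between the tissues of controls, among 2 demethylase, 4 deubiquitinase and 9 MLL/COMPASS genes, a share no higher than the 27.5% of all genes. Kdm6b, a demethylase of H3K27, was 0.88 higher in OB controls than in SEZ controls (SE 0.11, adjusted p = 4.12e-06) and 0.99 higher in cKO samples (adjusted p = 2.91e-05). Kdm6a, the other demethylase gene of the list, on the X chromosome, was at 0.22 in controls (adjusted p = 0.314). Asxl3, of the complex that removes ubiquitin from H2A, was 0.89 higher in OB controls (adjusted p = 7.24e-07), whereas Bap1, Asxl1 and Asxl2 lay between -0.10 and 0.01. Among 9 genes of the MLL/COMPASS methyltransferases, which deposit the activating H3K4 mark, Kmt2a was higher in OB (0.24, adjusted p = 0.0311) and the other 8 did not pass. Unadjusted, 0 of the 9 were under 0.05 between genotypes in SEZ and 1 (Kmt2a, 0.22) in OB, where 3.51% of all genes were. Kmt2a was not called with arrays centred on their medians in either genotype. Kmt2b, Kmt2c and Kmt2d were at 0.12, 0.20 and 0.02. Of the 14 genes of histone deacetylase and chromatin assembly complexes that share Rbbp4 and Rbbp7, 3 were higher in OB, among them Hdac1 (0.42, adjusted p = 0.00142), with Gatad2a (0.20) and Sin3b (0.25), where 12.6% of all genes were called higher. Hdac2, Mta1 and Mta2 were at 0.18, 0.12 and 0.04. Between genotypes 0 of 14 passed in limma, with an unadjusted p under 0.05 for Chaf1b in SEZ and Hdac2 in OB (-0.32). Of all genes 2.47% in SEZ and 3.51% in OB had one.

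**Figure D4:**
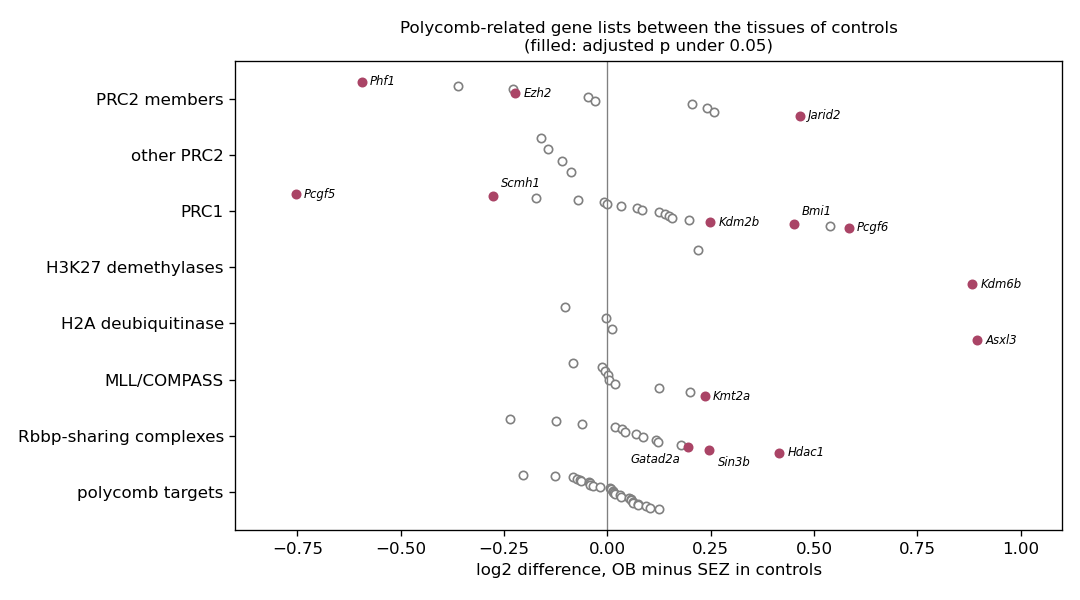
Log2 difference of OB minus SEZ in controls for each measured gene of the PRC2 members and 7 polycomb-related lists, 1 row per list; filled and named points passed at an adjusted p under 0.05. Kdm6b and Asxl3 lie farthest to the right, Pcgf5 and Phf1 farthest to the left, and no target gene is filled.

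Classical polycomb targets, 29 measured genes that are mostly Hox genes, had no call between genotypes in either tissue in limma, and 0 had an unadjusted p under 0.05. In SEZ their differences lay within -0.15 and 0.17 with a median of 0.06, and in OB within -0.08 and 0.11 with a median of 0.01. Estimates were below 0 for 7 of the 29 in SEZ, as for 48.0% of all genes. In OB they were below 0 for 13 of the 29, as for 52.1% of all genes. Cdkn2a, the senescence regulator that Ezh2 represses in neural stem cells, was at 0.09 in SEZ and -0.01 in OB (SE 0.10 each). Cdkn2b, its neighbour, was at -0.15 and 0.05, and Hoxa2 and Hoxa3 at 0.04 and 0.11 in SEZ. Hoxa2 and Hoxa3 were below the lower quartile on all 16 arrays. By group means 7 of the 29 lay below it in each SEZ group and 8 in each OB group. The mean of the list was 6.34 to 6.64 over all arrays, below every array median. Differences of such dim genes are compressed, so the absence of calls does not show that the targets were unchanged. Between tissues Hoxd11 alone among the 29 passed, in cKO samples (-0.24, adjusted p = 0.0237).

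The genes whose profile over the 16 arrays lay nearest to that of Ezh2, each gene's own mean subtracted, were Dbf4, Amer3, Zhx1, Olfm2, Fcer1g, Hikeshi, Klf8 and Fam167a. Likeness was the root mean square difference, 0.113 for Dbf4 to 0.133 for Fam167a, where Ezh2 itself varied by 0.25. Dbf4 activates the kinase that starts DNA replication, and Fcer1g is an immunoglobulin receptor subunit of microglia. Dbf4 was at -0.22 in OB cKO against control and -0.28 in OB against SEZ controls, and Klf8, a Krüppel-like factor, at -0.34 and -0.25. These differences follow from the choice, since likeness was measured on the same arrays. Under the 2 other scalings, median centring and cyclic loess, between 5 and 8 of these 8 genes stayed among the nearest. With group means subtracted as well, the nearest were Rpl10, Arl9, Olfr1048, Tubgcp4, Pitrm1, Tmem185b, Lin9 and Eif4enif1, at 0.0436 to 0.0515 where Ezh2 varied by 0.0772.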

How the data were processed

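Each of the 16 samples was hybridised to its own Affymetrix array, read in 1 colour. The deposited values are log2 expression per probe set, made by the authors with RMA (background correction, quantile normalisation between arrays, probe summarisation) in Affymetrix Expression Console 1.2, per the submitters' processing notes. RMA compresses differences of dim probe sets, and quantile normalisation removes shifts shared by a whole array. The file holds no detection calls and no sequence depth; precision is limited by how many arrays there are.

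The platform annotation gives 1 symbol to 21789 of the 35556 probe sets, several to 1621 and none to 12146; 21698 were found in the RefSeq table and 0 symbols changed. The brightest probe set stood for each gene, giving 19938 genes. All arrays were fitted with limma 3.58.1 in R 4.3.3 (4 groups, no covariate, 12 residual degrees of freedom). Tests were two-sided, with Benjamini-Hochberg adjustment across the 19938 genes and a threshold of 0.05. The labels call samples biological replicates but name no animals, so p-values measure the spread between these samples. The fit was tested on simulated data.

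The members and lists were chosen with earlier results of these data known. Named genes were the 10 members, the first 4 measured genes of each polycomb list with any called there in a cKO contrast, and the 8 genes nearest to Ezh2 in profile. Genes of the lists called only between tissues are named because they passed, so they were chosen after their values were seen. Same-numbered arrays were checked for shared deviations: correlations over 0.1 held in 7 of 8 pairs between tissues (all 5 of the controls) and in 5 of 6 between genotypes (all 3 of OB), from -0.405 to 0.611. Alternatives were other scalings, filters, probe set rules, array weights, blocks, a Xist covariate and left-out arrays.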

Additional observations from a re-analysis of the deposited data

Results flagged for a closer look

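In 72 groups of 5 control arrays, 1 gene each, an array whose distance to its neighbour was over 0.71 of the group's range (Dixon's 95% limit) was found 7 times, where chance gives about 1 in 20. The member among them was Mtf2, at 10.06 in OB control replicate 5, with the next array at 9.73. The same array was highest for Lcorl (8.88). SEZ control replicate 1 was highest for Epop (8.68) and Cdkn2b (7.48) and lowest for Lcor (9.05) and Kmt2d (10.26). SEZ control replicate 5, labelled Brg1+/+, was lowest for Asxl1 (9.67). No gene of 36 had all arrays moving in opposite directions in SEZ and OB.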

How the results depend on the processing

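Ezh2 kept its direction under all settings run. It was -0.24 to -0.14 in SEZ, -0.51 to -0.40 in OB and -0.58 to -0.44 between the tissues of cKO samples. Between the tissues of controls it was -0.26 to -0.19 (adjusted p 0.00574 to 0.0467 in limma, passed in all). These p-values are not independent of the choice, since the OB controls also stood in the contrast that chose Ezh2. In SEZ 0 members passed under every setting. In OB the count of members called fell from 1 to 0 with only the compared arrays, median centring, cyclic loess, the replicate block by number, without SEZ controls 2 and 4 (which are high in cortical markers), without both arrays of cKO number 1, and without both of number 3. It was 0 to 1 over single-array omissions. Between the tissues of controls 3 became 6 with array weights, 5 with the replicate block by number, 5 at an adjusted p under 0.1 and 7 with the component covariate. Single omissions gave 3 to 5 (5 without SEZ control replicate 1). In cKO samples 2 (Ezh2 counted as a description) became 5 with the replicate block by number (Phf1, Rbbp7 and Rbbp4 added), 4 with that by genotype and number (Phf1 and Rbbp7 added), 4 at an adjusted p under 0.1 and 5 with the component covariate. Single omissions gave 2 to 4 (4 without OB cKO replicate 2). Neither block pairs the tissues for cKO number 1, whose 2 arrays are not of 1 animal. The block by genotype and number gave 4 in controls (Rbbp7 added). For SEZ, and for the difference between the tissues' genotype effects, both blocks left the count at 0, and that by genotype and number left OB at 1. The component covariate was chosen after seeing the data and computed from these same arrays. Causes were not tested.

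Members near 0 in SEZ changed sign. Cyclic loess gave 0.0101 for Suz12, 0.0107 for Rbbp4 and 0.00505 for Mtf2. The replicate block by number gave 0.116 for Suz12, 0.0120 for Rbbp4, 0.0755 for Rbbp7 and 0.0766 for Mtf2. The Xist covariate gave 0.00967 for Mtf2 and 0.00606 for Phf1, and array weights 0.0665 for Phf1. Without SEZ controls 2 and 4, Ezh1 was -0.0103, Suz12 0.185, Rbbp4 0.083, Rbbp7 0.0647, Mtf2 0.0863 and Phf19 -0.003. Without both arrays of cKO number 3, Ezh1 was -0.116, Suz12 0.117, Rbbp4 0.0075 and Rbbp7 0.0355. Over single omissions the ranges were -0.116 to 0.17 for Ezh1, -0.109 to 0.117 for Suz12, -0.0656 to 0.0522 for Rbbp4, -0.114 to 0.0355 for Rbbp7, -0.0713 to 0.0388 for Mtf2 and -0.193 to 0.122 for Phf1. Between the tissues of controls Rbbp4 was 0.0489 without SEZ controls 2 and 4, and Phf19 0.0722 with array weights. Single omissions gave -0.0997 to 0.0181 for Rbbp4 and -0.0899 to 0.0439 for Phf19. In cKO samples Suz12 was 0.0279 with cyclic loess, 0.022 with the Xist covariate, 0.135 without both arrays of number 1 and 0.02 without both of number 3 (single omissions -0.249 to 0.143). Phf19 was 0.0236 with the Xist covariate and 0.041 without both arrays of number 3 (single omissions -0.0607 to 0.0368).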
